A study of Mus musculus with 4 samples.

Results

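Il1r1, Il1rl1 and Il18r1 encode receptors of the interleukin-1 family and lie close together on mouse chromosome 1. Every region that the deposited table assigns to one of these 3 genes was taken, which gave 6 of its 10000 regions: 4 for Il1r1, 1 for Il1rl1 and 1 for Il18r1. The table comes from capture and sequencing of methylated DNA from 4 populations of CD4+ T cells of female Balb/c mice, with 1 library per population. Th17 cells were CD45RB low and secreted IL-17A without interferon gamma. Regulatory T cells (Treg) were CD25++ cells, Th1 cells were CD45RB low and secreted interferon gamma without IL-17A, and naive T cells (Tnaive) were CD45RB high. All 4 populations, from spleen and lymph node, were exposed for 3 h to 10 ng/ml PMA with 500 ng/ml ionomycin, which trigger T cell activation past the receptor; Treg cells received this after the sort and the others before it. How many mice stand behind a library, and whether they were pooled, is not given here.

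Each of these receptors binds its ligand outside the cell, recruits an accessory chain and signals through a Toll/IL-1 receptor (TIR) domain, the adaptor MyD88 and IRAK kinases to NF-kappaB. IL-1R1, the product of Il1r1, is the signalling receptor for IL-1 alpha and IL-1 beta and promotes the differentiation of Th17 cells. ST2, the product of Il1rl1, binds IL-33 and is known from Th2 cells and from a subset of regulatory T cells. The product of Il18r1 is the ligand-binding chain of the IL-18 receptor, through which IL-18 together with IL-12 raises interferon gamma production by Th1 cells. Methylation of cytosine in CpG dinucleotides was read here with a capture that binds methylated DNA, and read numbers therefore depend both on the methylation of a region and on how many CpGs it holds.

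The deposited value of a region is its number of reads times a constant for the library, and 1 read was worth 0.352 in the Treg library, 1.68 in Th1 and 0.996 in Tnaive. Over the table these libraries held 74571, 19548 and 34277 reads in the same order, with medians of 7, 2 and 3 reads per region. The Th17 library is listed at 0 in all 10000 regions, so its depth cannot be recovered. With 1 library per population there is no replicate check and no test between populations. Intervals are exact 95% intervals on reads (Poisson for a value, conditional binomial for a ratio) and cover counting error only. Because the assay reads DNA, the sorted identities could not be checked by marker expression.

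The 6 regions spanned 214363 bp of build mm9, and none was in a promoter. The first Il1r1 region was intronic, at chromosome 1, 40310832 to 40311059. The second lay in an intron at 40321484 to 40321715 and the third, also intronic, at 40321880 to 40322108. The fourth Il1r1 region, again in an intron, was at 40355935 to 40356121. The Il1rl1 region was assigned to exon 10 (40520555 to 40520791), and the Il18r1 region to an intron (40524954 to 40525194). Thus 5 of the 6 were intronic and 1 exonic, while over all 10000 regions 78.7% were intronic, 16.6% exonic and 4.77% in promoters. The regions were 187 to 241 bp long, all shorter than the table median of 249 bp.

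Spacing was uneven. The first and second Il1r1 regions were separated by 10424 bp, the third and the fourth by 33826 bp, the fourth Il1r1 region and Il1rl1 by 164433 bp, and Il1rl1 and Il18r1 by 4162 bp. The second and the third Il1r1 regions were only 164 bp apart and carried consecutive region numbers. Such neighbours were uncommon: 3.14% of the table's regions stood next to another by number, and the median gap to the nearest table region was 36198 bp. Libraries held fragments of 250 to 350 bp, so a single fragment can span that gap and these 2 regions may not be independent readings. Region numbers rise with position along the chromosome, and the cluster ran over 203 of them, with no table region of any other gene among them.

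The genes between and around the members differed in whether they had any region. In the RefSeq gene order of GRCm38.p6, Il1r2, the decoy receptor for IL-1, precedes Il1r1, then come Il1rl2, the receptor for the IL-36 cytokines, Il1rl1, Il18r1, and Il18rap, the accessory chain of the IL-18 receptor. Il1r2, Il1rl2 and Il18rap had 0 regions in the table, in which 22.4% of 21900 protein-coding genes had a region. Il1r1 was among the 560 gene labels, 10.5% of 5349, with at least 4 regions, whereas Il1rl1 and Il18r1 were among the 63.6% with 1 region. How the regions were selected is not stated, so a gene without a region is not shown to have been methylated alike in the populations.

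**Figure D1:**
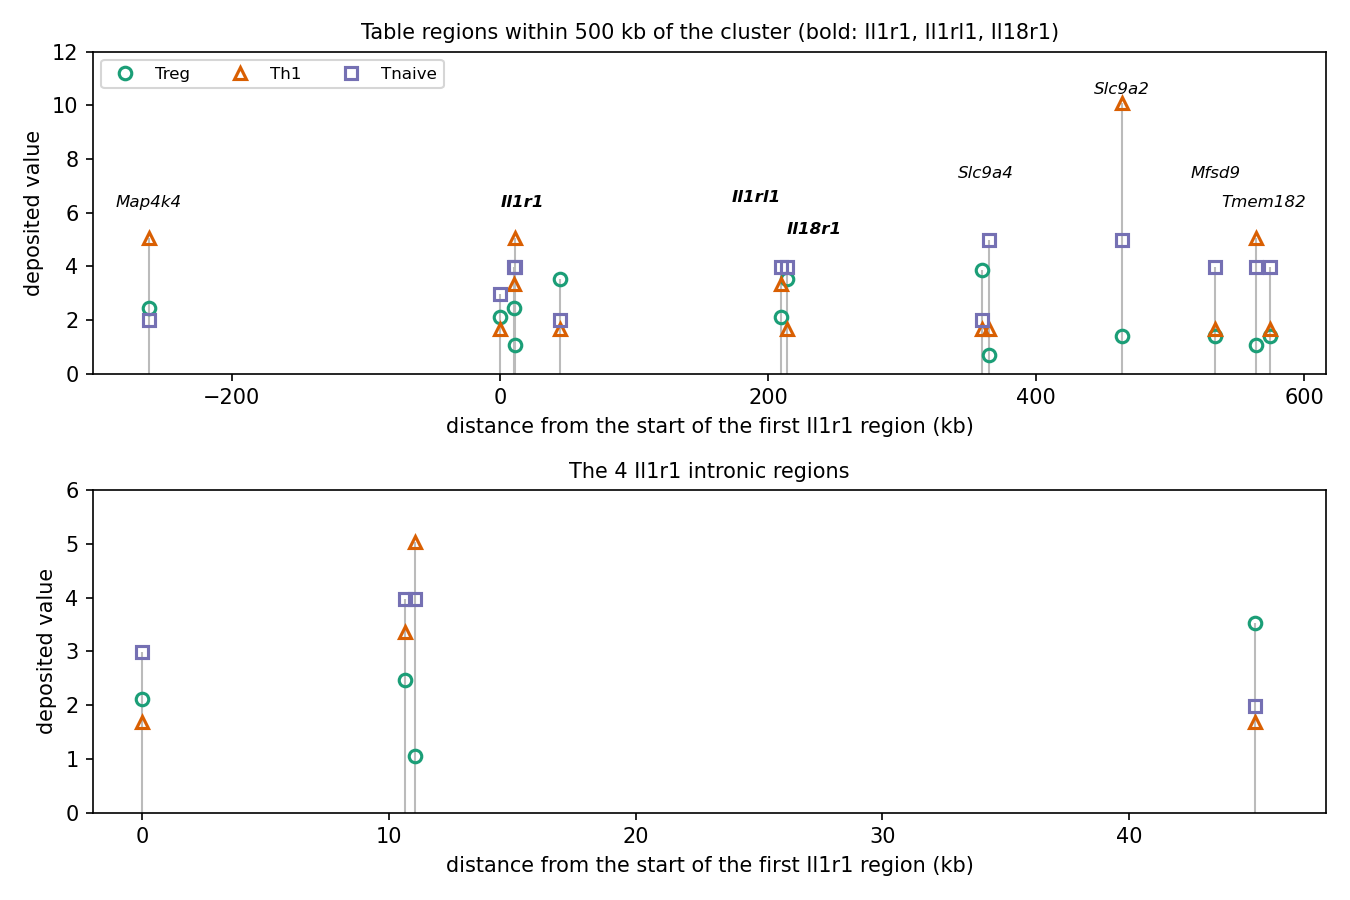
Deposited values (y axis, scaled reads) of table regions against distance in kb from the start of the first Il1r1 region, for Treg (circles), Th1 (triangles) and Tnaive (squares); grey lines mark each region. The upper panel covers 500 kb to either side of the cluster and the lower one the 4 Il1r1 regions, where the second and the third stand 164 bp apart, with Treg values of 2.47 and 1.06.

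The cluster as a whole held methylated DNA at about the level of an average table region in each library that was read. The 6 regions held 42 Treg reads, 10 Th1 reads and 21 Tnaive reads. Their mean value was 2.47 in Treg (interval 1.78 to 3.33), 2.80 in Th1 (1.34 to 5.15) and 3.49 in Tnaive (2.16 to 5.33), and the means over all 10000 regions were 2.63, 3.29 and 3.41, each inside the matching interval. As a share of the table's reads the cluster had 0.0563% in Treg, 0.0512% in Th1 and 0.0613% in Tnaive, and it made up 0.06% of the regions. Treg, Th1 and Tnaive reads were all present at 6 of 6 members, and at 85.9% of the table's regions.

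Within Il1r1, reads fell into differing proportions from region to region. The first region was listed at 0 in Th17 and held 6 Treg reads (value 2.11), 1 Th1 read (1.68) and 3 Tnaive reads (2.99). The second was listed at 0 in Th17 and held 7 Treg reads (2.47), 2 Th1 reads (3.36) and 4 Tnaive reads (3.98). In both, the Tnaive value was the highest and the intervals of all 3 libraries overlapped.

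The third Il1r1 region, 164 bp further on, was listed at 0 in Th17 and held 3 Treg reads (value 1.06, interval 0.218 to 3.09), 3 Th1 reads (5.04, 1.04 to 14.7) and 4 Tnaive reads (3.98, 1.09 to 10.2). It was the lowest of the 6 in Treg and the highest in Th1. The fourth was listed at 0 in Th17 and held 10 Treg reads (3.52, 1.69 to 6.48), 1 Th1 read (1.68, 0.0426 to 9.37) and 2 Tnaive reads (1.99, 0.241 to 7.20). Here Treg was the highest library, the only such case among the 6 regions at the deposited scaling, and Tnaive was at its lowest value of the cluster. With libraries scaled to equal table totals, or by median of ratios, Treg was also the highest library at Il18r1. Summed over its 4 regions, Il1r1 averaged 2.29 in Treg (interval 1.5 to 3.36), 2.94 in Th1 (1.18 to 6.06) and 3.24 in Tnaive (1.72 to 5.54), and these intervals overlapped.

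The Il1rl1 exon 10 region was listed at 0 in Th17 and held 6 Treg reads (value 2.11, interval 0.776 to 4.60), 2 Th1 reads (3.36, 0.407 to 12.1) and 4 Tnaive reads (3.98, 1.09 to 10.2). Its Th1 and Tnaive reads equalled those of the second Il1r1 region and its Treg count was lower by 1. The Il18r1 intronic region, 4162 bp beyond it, was listed at 0 in Th17 and held 10 Treg reads (3.52, 1.69 to 6.48), 1 Th1 read (1.68, 0.0426 to 9.37) and 4 Tnaive reads (3.98, 1.09 to 10.2). Its Treg and Th1 reads matched those of the fourth Il1r1 region. In the value order of the libraries at Il1rl1 (Tnaive, Th1, Treg) and at Il18r1 (Tnaive, Treg, Th1) no neighbours differed beyond their counting intervals.

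**Figure D2:**
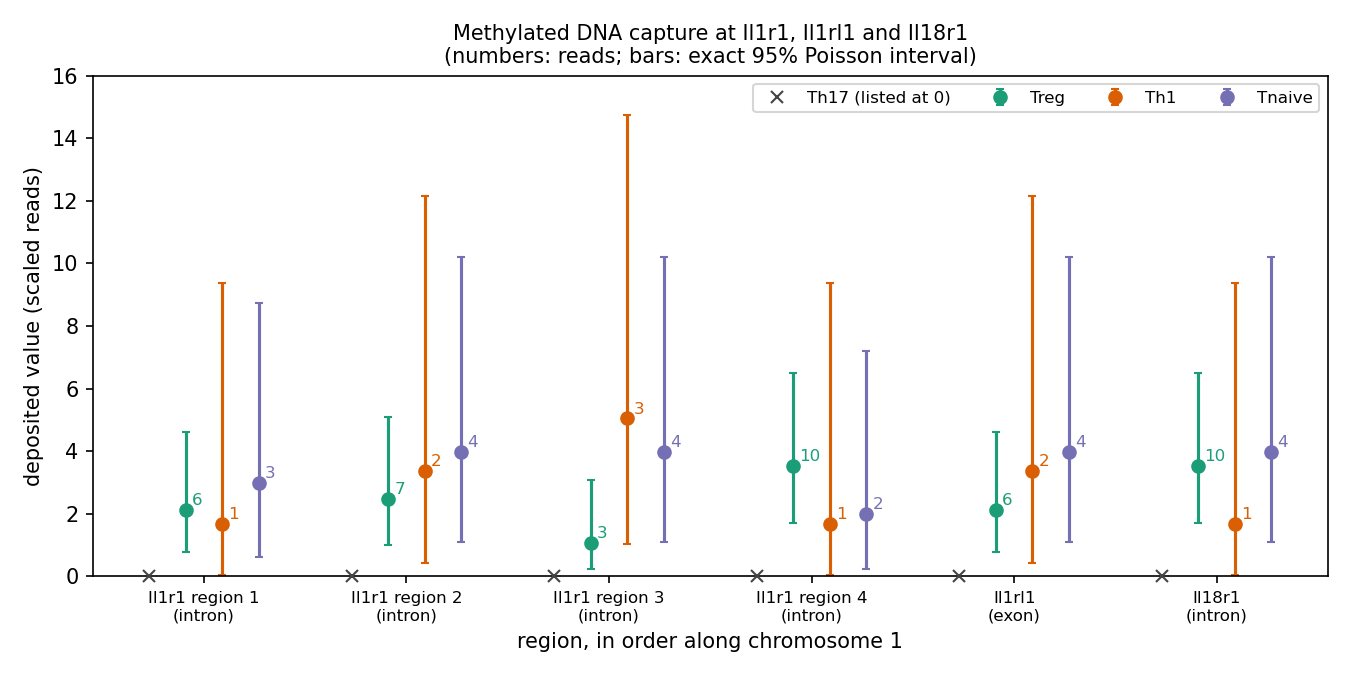
Deposited value (y axis, scaled reads) of each region in Th17 (crosses, all at 0), Treg, Th1 and Tnaive; bars are exact 95% Poisson intervals and the small numbers are reads. The intervals of Treg, Th1 and Tnaive overlap in every region, and the Th1 intervals are the widest, resting on 1 to 3 reads.

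Th17 against the other populations is the comparison for which the table is named. The size rule used here calls a region past a log2 ratio of 1 or -1, computed from the values after adding a pseudocount of 0.5. By it, Th17 was lower than Treg, Th1 and Tnaive at 6 of 6 member regions and at 85.2% of all regions tabulated. With Th17 at 0 throughout, a region passes whenever it has a Th1 read, a Tnaive read and more than 1 Treg read, so the count restates that Th17 is listed at 0 in every region. A count of 0 allows up to 3 reads as a one-sided 95% limit. If a Th17 read were worth as much as a Th1 read, that limit would be a value of 5.04, above the mean of the other libraries in all 6 regions. If it were worth a Tnaive read, the limit would be 2.99, above that mean in 2 of 6, and if a Treg read, 1.06, above it in 0 of 6. With the two-sided limit of 3.69 reads, the counts were 6 of 6, 6 of 6 and 0 of 6 in the same order. These limits are for each region on its own and hold only if regions were not chosen for a Th17 count of 0. No limit was computed for the regions summed. Th17 is listed at 0 in all 10000 regions, and neither its depth nor how the regions were chosen is given. Whether Il1r1, Il1rl1 or Il18r1 carried less methylation in Th17 cells can therefore not be told from these values.

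Among the libraries that were read, few member regions differed by the same rule. The Treg to Th1 comparison set the deepest library against the shallowest. The third Il1r1 region was lower in Treg than in Th1, with a log2 ratio of -1.83, and 21% of table regions were lower in that comparison. The ratio of values, without the added 0.5, was 0.210 and its counting interval, 0.0281 to 1.57, included 1. The fourth Il1r1 region and the Il18r1 region each had a log2 ratio of 0.88, short of the threshold; at equal table totals and with median-of-ratios scaling both passed as higher in Treg. At the deposited scaling 0 members were higher in Treg than in Th1, against 17% of the table. The median over the 6 was -0.06, beside -0.22 over all regions.

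In Treg against Tnaive, the third Il1r1 region was again lower, with a log2 ratio of -1.53, as were 22.2% of table regions. The ratio of values was 0.265, with a counting interval of 0.0389 to 1.57. No member was higher, against 8.33% of the table; the fourth Il1r1 region came nearest, with a log2 ratio of 0.69, and passed at equal table totals with 1.01. Being lower in Treg than in both Th1 and Tnaive was found in 8.32% of table regions, and 33 regions, this one included, had exactly its reads. The median over the 6 members was -0.51, beside -0.29 over all regions. The other 4 regions had log2 ratios of -0.42 and -0.60 (first and second Il1r1 regions), -0.78 (Il1rl1) and -0.16 (Il18r1), and the Il18r1 ratio turned to 0.18 at equal table totals and to 0.16 with median-of-ratios scaling.

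In Th1 against Tnaive, the Il18r1 region was lower, with a log2 ratio of -1.04 that rests on a single Th1 read, and 29% of table regions were lower. The ratio of values was 0.422, with a counting interval of 0.00857 to 4.26. This call was not made at equal table totals, where the log2 ratio was -0.98, and was kept with median-of-ratios scaling at -1.05. No member was higher in Th1, against 19.4% of the table, and the median over the 6 was -0.22, beside -0.19 over all regions. In these comparisons, which share libraries, the counting interval of the ratio included 1 in 6 of 6 members each time, and 1 of 6 lower calls lies near the background share.

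**Figure D3:**
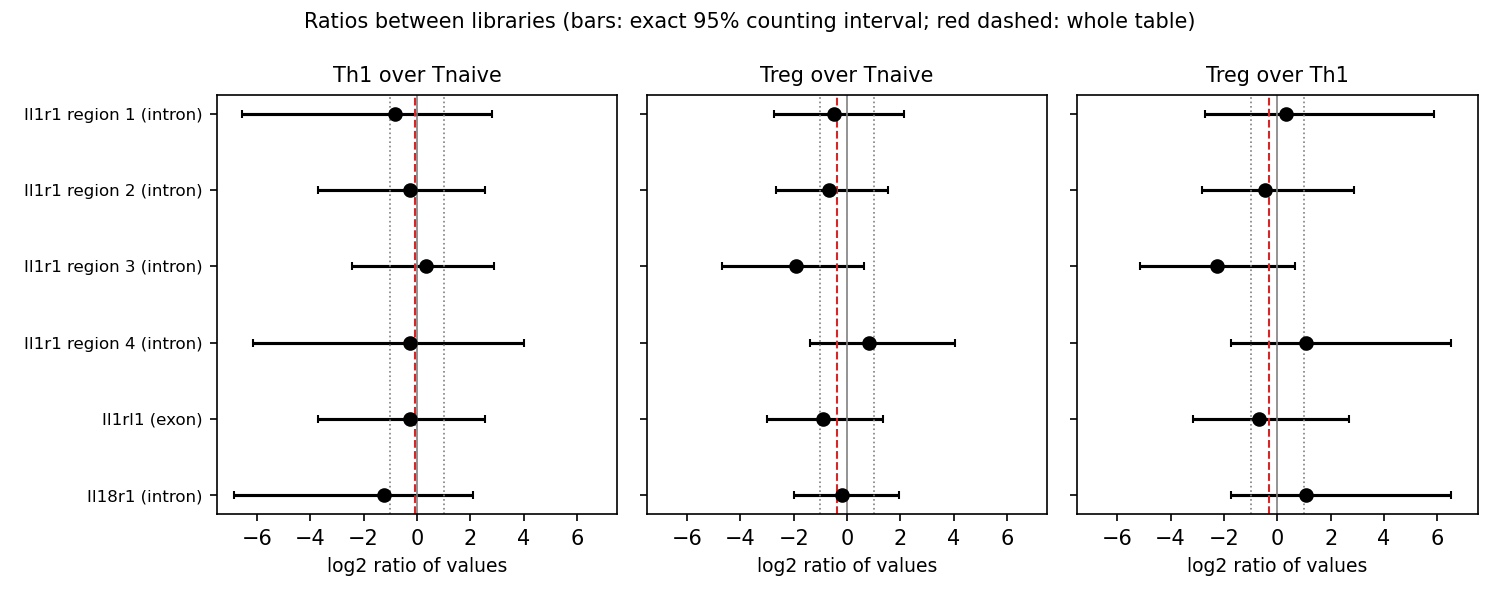
Log2 ratios of deposited values (x axis, no pseudocount) between pairs of libraries for each region (y axis); bars are exact 95% counting intervals, dotted lines mark a log2 ratio of 1 in either direction and the red dashed line the ratio over the whole table. Every interval crosses 0, and the third Il1r1 region is the one farthest to the left in both Treg comparisons.

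Summed over the cluster, the Treg value was 0.708 of the Tnaive value (interval 0.410 to 1.26), and the Treg value was 0.881 of the Th1 value (0.435 to 1.97). The Th1 value was 0.804 of the Tnaive value (0.338 to 1.78). The whole table gave 0.770, 0.80 and 0.962 for the same pairs, each within the cluster's interval. On the log2 scale the summed Treg to Th1 ratio of -0.18 turned to 0.22 without the third Il1r1 region, to 0.14 at equal table totals and to 0.21 with median-of-ratios scaling, so it has no settled direction. The summed Treg to Tnaive ratio of -0.50 was -0.30 without that region, -0.12 at equal table totals and -0.14 with median-of-ratios scaling.

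Ranked among the 10000 regions by reads in the same library, the members covered most of the range. In Treg the third Il1r1 region stood at percentile 8.18 and the fourth Il1r1 region and Il18r1 at 79.1, with the first Il1r1 region and Il1rl1 at 34.1 and the second Il1r1 region at 45.3. In Th1, where reads ran from 1 to 3, percentiles were 26.8, 55.1 and 78.0. In Tnaive they ran from 19.7 for the fourth Il1r1 region to 64.6, reached by 4 of the 6. The highest percentile of any member in any library was thus 79.1. The variance of the reads over the 6 regions divided by their mean was 1.03 in Treg, 0.400 in Th1 and 0.200 in Tnaive, and over all regions it was 1.35, 0.900 and 0.719. By the mean of the Treg, Th1 and Tnaive values, the third Il1r1 region (3.36) stood at percentile 64.3 of the table, the second (3.27) at 60.5, Il1rl1 (3.15) at 53.9 and Il18r1 (3.06) at 50.5. The fourth Il1r1 region (2.40) stood at 20.3 and the first (2.26) at 14.6. In that mean 1 Th1 read counts 1.68 and 1 Treg read 0.352. By summed reads per 100 bp the order differed, with the fourth Il1r1 region at percentile 86.9 and Il18r1 at 75.4. The second Il1r1 region then stood at 62.6, Il1rl1 at 50.1, the first at 33.1 and the third at 32.7.

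**Figure D4:**
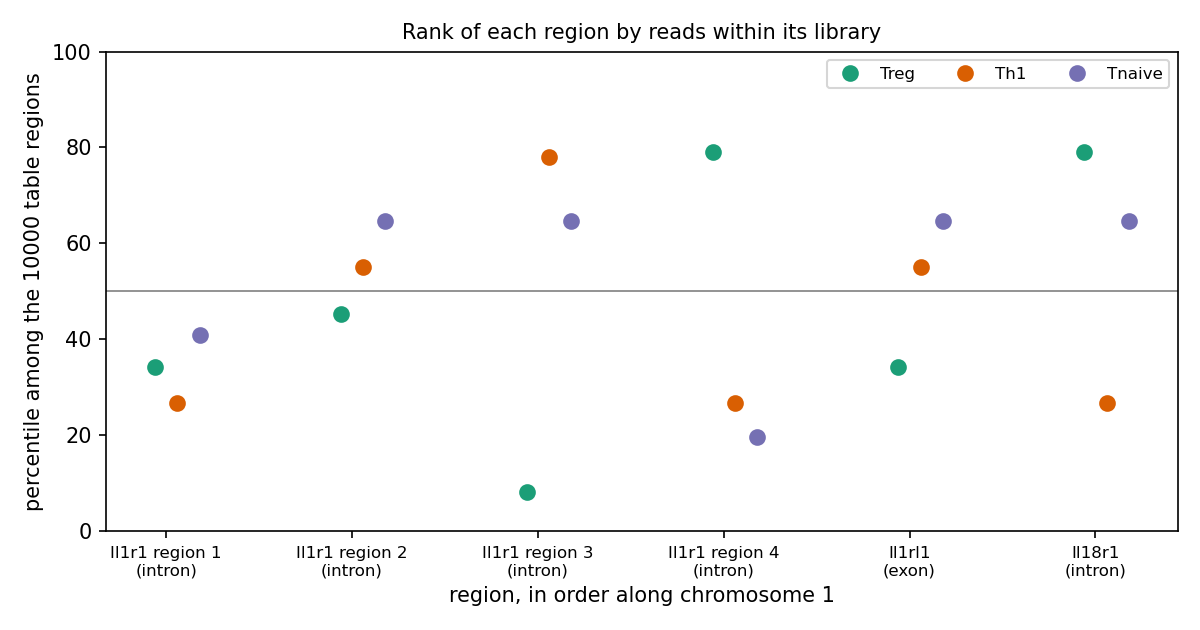
Percentile of each region among the 10000 table regions by reads within its library (y axis), for Treg, Th1 and Tnaive. The third Il1r1 region is low in Treg (8.18) and high in Th1 (78.0), and the fourth Il1r1 region and Il18r1 are high in Treg (79.1) and low in Th1 (26.8).

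Within 500 kb to either side of the cluster the table held 7 further regions, in Map4k4 (1), Slc9a4 (2), Slc9a2 (1), Mfsd9 (1) and Tmem182 (2). Map4k4 encodes a kinase, and Slc9a4 and Slc9a2 encode sodium/proton exchangers. Leaving out the members themselves, each member region had 4 to 7 table regions within 500 kb, and with the other members counted 9 to 12. The median over all table regions, with all others counted, was 6. The members were taken because they lie close together, so their higher count is not a separate result. The 7 neighbours averaged 1.76 in Treg (interval 1.23 to 2.45), 3.84 in Th1 (2.20 to 6.24) and 3.70 in Tnaive (2.42 to 5.42), and these intervals overlapped those of the cluster in each library. The Slc9a2 intron held 4 Treg reads, 6 Th1 reads (value 10.1) and 5 Tnaive reads. A Tmem182 intron held the same reads as the third Il1r1 region (3 Treg, 3 Th1 and 4 Tnaive), and the Slc9a4 intron resembled the fourth, with 11 Treg, 1 Th1 and 2 Tnaive reads. The Map4k4 intron held 7, 3 and 2 reads, the Slc9a4 exon 9 region 2, 1 and 5, and the Mfsd9 intron and the other Tmem182 intron 4, 1 and 4 each, always as Treg, Th1 and Tnaive.

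Other genes of the pathway had a region about as often as genes at large. Of 44 further genes listed as ligands, receptors and signalling proteins of the interleukin-1 family, the 3 members left out, 10 had a region, which is 22.7%, while 22.4% of 21900 protein-coding genes did. Among 11 genes of ligands and antagonists 1 had a region, an intron of Il33, the ligand of ST2 (chromosome 19, 30022391 to 30022706), with 10 Treg, 2 Th1 and 2 Tnaive reads. It passed the size rule in none of the comparisons between Treg, Th1 and Tnaive.

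Among 10 receptor genes 5 had a region, and beside the 3 members these were Il1rap and Il1rapl2. Il1rap encodes the accessory chain shared by IL-1R1 and ST2, and it had 2 intronic regions on chromosome 16. The first (26645646 to 26645953) held 11 Treg, 0 Th1 and 4 Tnaive reads. The second (26711050 to 26711276) held 6 Treg, 4 Th1 and 3 Tnaive reads, with a log2 ratio of -1.47 for Treg to Th1 and 1.05 for Th1 to Tnaive. The Il1rapl2 intron on the X chromosome (134581330 to 134581523) held 7 Treg, 0 Th1 and 3 Tnaive reads. At 0 Th1 reads up to 3 are allowed, a value of 5.04, which lies above the Treg and Tnaive values of both regions without a Th1 read.

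Of 26 signalling genes 7 had a region. Nfkb1, which encodes the p105 precursor and p50 subunit of NF-kappaB, had 2 on chromosome 3. Its exon 21 region (135253099 to 135253374) held 16 Treg, 1 Th1 and 2 Tnaive reads, with a log2 ratio of 1.30 for Treg to Tnaive and 1.49 for Treg to Th1. Its intronic region (135309013 to 135309335) held 12, 3 and 1 reads in the same libraries.

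The other 6 signalling genes had 1 region each. Those of Tollip, a negative regulator of IL-1 signalling (exon 6), Peli2, an E3 ubiquitin ligase that acts with IRAK (intron), and Ikbkb, the IKK-beta kinase (intron), each held 8 Treg reads, with 2 or 3 Th1 and 1 to 3 Tnaive reads. Those of Tab3, an adaptor of the kinase TAK1 (exon 4), Peli3 (intron) and Ikbkg, the IKK regulatory subunit NEMO (promoter), held 4 or 5 Treg, 1 to 3 Th1 and 3 or 4 Tnaive reads. Counted over the 12 non-member regions, 3 were higher and 2 lower in Treg than in Th1, against 17% and 21% of all regions. In Treg against Tnaive 3 were higher and 1 lower, against 8.33% and 22.2%, and in Th1 against Tnaive 4 were higher and 3 lower, against 19.4% and 29%. The higher calls in Treg against Tnaive were Peli2 and both Nfkb1 regions, each resting on 1 or 2 Tnaive reads. Of the 3 higher calls in Treg against Th1 and of the 3 lower calls in Th1 against Tnaive, 2 each were the regions with 0 Th1 reads. Myd88, Irak1, Irak4 and Traf6 were among the 19 signalling genes with 0 regions, where 22.4% of protein-coding genes had a region.

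The split of each gene's summed value between Treg, Th1 and Tnaive was compared with that of other genes. For Il1r1 the shares were 27.0% in Treg, 34.7% in Th1 and 38.2% in Tnaive, against 28.2%, 35.2% and 36.6% over the table. Of the 169 other genes with 4 regions and at least as many reads, 0 had the same shares. By summed absolute difference, with shares taken as fractions and not as percent, the nearest were B230120H23Rik and Sil1, each at 0.0251, and Slc44a5 at 0.0272. For Il1rl1 (22.4%, 35.5% and 42.1%), 20 of 2258 genes with 1 region and at least as many reads had the same shares, and the naming rule gave 2310044G17Rik, Agtr1b and Cubn. For Il18r1 (38.4%, 18.3% and 43.4%), 29 of 1021 did, and the rule gave 1190005I06Rik, 2810006K23Rik and 4921513D23Rik. These likenesses are over 3 libraries and a few reads.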

How the data were processed

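Per the submitters' processing notes, Bowtie 0.12.7, FastQC and build mm9 were used; what each did, and how regions were called and chosen, is not given. Per the labels' protocols, a MethylCap kit enriched the methylated DNA, 250 ng of it went into each library, and gel selection kept fragments of 250 to 350 bp. The deposited signal of a region is a scaled number of reads: in Treg, Th1 and Tnaive 100% of values were whole multiples of 1 constant per library (relative tolerance 1e-06), and division gave reads. The deposited column middle_difference, a signed whole number per region, was not used. Columns were matched to samples by name. Intervals, ratios and percentiles (mid-ranks for ties) were computed in Python 3.11.15 with pandas 2.3.3, NumPy 2.4.6 and SciPy 1.17.1. On simulated reads, the intervals were tested at a few mean counts and the size rule only for higher calls in Treg against Tnaive. Lower calls and comparisons with Th1 were not simulated. All 6 member regions are named, with table regions within 500 kb, a pathway list and, per member gene, nearest genes by shares (ties by reads and symbol). Members and lists were chosen with earlier results of these data known. Synonyms and gene order came from a GRCm38.p6 table; no coordinates of it are printed. No mm9 sequence was used.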

Additional observations from a re-analysis of the deposited data

How the results depend on the processing

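A threshold of 1.5 kept 6 of 6 regions lower in Th17, while a pseudocount of 5 left 0, since 5 is above all but 1 of the members' values; it also left 0 of the single lower calls in Th1 against Tnaive, Treg against Tnaive and Treg against Th1. At equal table totals the lower call in Th1 against Tnaive went to 0. The members higher in Treg than in Tnaive went to 1 (the fourth Il1r1 region) and those higher in Treg than in Th1 to 2. With median-of-ratios scaling 2 members were also higher in Treg than in Th1. The lower call in Th1 against Tnaive stayed at 1 there, and 0 members were higher in Treg than in Tnaive. Without Il1r1, which holds 4 of the regions, the summed value was 5.64 in Treg, 5.04 in Th1 and 7.97 in Tnaive, against 14.8, 16.8 and 20.9. A window of 250 kb held 3 other regions in place of 7. Alternatives added after the data were examined left out each member region in turn: the summed log2 ratio ran from -0.42 to 0.22 for Treg to Th1, from -0.75 to -0.30 for Treg to Tnaive and from -0.53 to -0.16 for Th1 to Tnaive. Merging the 2 adjacent Il1r1 regions, also added then, gave log2 ratios of -1.15 for Treg to Th1, -1.07 for Treg to Tnaive and 0.07 for Th1 to Tnaive. Percentiles among regions of the same location moved by at most 7.69 points. The depth of the Th1 library, 1 to 3 reads per member, limits every comparison with it. No paired analysis was possible because each population has 1 library.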
